A study of Mus musculus with 6 samples.

Results

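The S100 family of small calcium-binding proteins was followed as 8 genes, *S100a1*, *S100b*, *S100a4*, *S100a6*, *S100a10*, *S100a11*, *S100a13* and *S100a16*, of the 18324 gene rows in the count table. The 8 rows were taken by mouse symbol. *S100a1* and *S100b* were chosen by their measured levels, having been seen higher in high-pigmented cells in 2 of 3 library pairs, so their difference between the sorted populations is given here as a description with no test, and the question was whether the other 6 followed them. Of 18 S100 genes listed for mouse, 9 had a row, the 8 above and *S100a8*, which had 5 counts in 1 library and 0 in the other 5; the other 9 were not analysed here.

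The cells were B16-F10, an established mouse melanoma line obtained from a cell repository and grown in serum-containing medium. Cells of this line differ in how much melanin they hold, and flow sorting by the light that melanin scatters gave the high-pigmented (HPC) and low-pigmented (LPC) populations, with 3 libraries of each and no drug or genetic change. The titles carry a suffix that 1 HPC and 1 LPC library share, 16-9-15 in pair 1, 18-8-14 in pair 2 and 1-9-14 in pair 3, and what the suffix marks is not given. Nothing in the labels says that the libraries came from separate cultures, so p-values measure only the spread between these libraries. The 2 populations are fractions of 1 line, and a transcript's level in a sorted fraction cannot tell more RNA per cell from more cells that hold it.

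S100 proteins carry a pair of EF-hands, the helix-loop-helix motifs that bind calcium, and mostly act as dimers. When calcium binds, a hydrophobic face opens and the dimer attaches to other proteins, among them annexins, p53, cytoskeletal proteins and kinases. Some S100 proteins also leave the cell and act on receptors such as RAGE. S100B is a standard marker of melanocytes and melanoma in pathology, S100A1 is best known from heart and skeletal muscle, and S100A4 and S100A6 are often described in motile and mesenchymal cells.

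Apart from *S100b*, the members lie on mouse chromosome 3 (GRCm38, GENCODE vM21 gene spans), where many S100 genes form a cluster. *S100a1* spans chr3:90511034-90514392 on the minus strand and *S100a13* spans chr3:90514435-90524581 on the plus strand, so these 2 genes start back to back with 42 bases between their starts; RefSeq's span of *S100a13* begins at 90514233, inside *S100a1*. *S100a16* (chr3:90537254-90543151), *S100a4* (chr3:90603771-90606045) and *S100a6* (chr3:90612882-90624181) follow on the plus strand, with 6836 bases between *S100a4* and *S100a6*. *S100a11* (chr3:93520488-93526287) and *S100a10* (chr3:93555080-93564643) lie 2896306 bases further on and 28792 bases from each other. *S100b* lies apart at chr10:76253853-76261159 on the plus strand. Reads of 3′-end libraries start close to the poly(A) tail, and the ends of *S100a1* and *S100a13* are 13547 bases apart on opposite strands, with no shared exon in this annotation.

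The stretches before the starts are shown for the members that the results turn on: the bases between *S100a1* and *S100a13*, whose levels went together over the libraries, *S100b*, the most abundant member, and *S100a4*, the member that differed most between pairs. They are RefSeq sequences of GRCm38.p6, in which 7 of the 8 members had an entry; those of *S100b* and *S100a4* are the 250 bases before the RefSeq start on the gene's own strand. Capitals mark TATAAA, the core of the TATA box.
S100a1 to S100a13, chr3:90514393-90514434, plus strand, between the GENCODE starts of both genes: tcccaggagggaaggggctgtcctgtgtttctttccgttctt
S100b, chr10:76253586-76253835, plus strand, upstream: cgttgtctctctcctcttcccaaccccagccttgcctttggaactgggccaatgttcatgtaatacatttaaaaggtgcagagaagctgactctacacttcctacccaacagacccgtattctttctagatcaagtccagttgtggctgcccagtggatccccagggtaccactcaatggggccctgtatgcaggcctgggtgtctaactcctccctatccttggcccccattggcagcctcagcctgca
S100a4, chr3:90603520-90603769, plus strand, upstream and inside the span of the gene model Gm42674: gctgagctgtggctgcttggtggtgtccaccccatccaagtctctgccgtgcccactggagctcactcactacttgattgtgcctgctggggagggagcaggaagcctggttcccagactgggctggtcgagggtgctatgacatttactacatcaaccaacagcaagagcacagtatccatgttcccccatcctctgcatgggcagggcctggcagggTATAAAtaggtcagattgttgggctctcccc
In *S100a4* the TATAAA begins 31 bases before the start. Among 32851 RefSeq windows of this length, 12.4% held TATAAA on either strand. CACGTG, the E-box, was in 6.02% of windows and, of the members, in that of *S100a11*, 223 bases before the start. CATGTG, a related E-box, was in 12.25% of windows and in that before the second start of *S100a16*, 240 bases before it. ACAAAG, a core motif of SOX factors, was in 16.5% of windows and in none of the members' windows. These are matches of letters in windows of fixed length.

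The libraries held 3819605 to 7311131 counts on genes, with 10620 to 15002 genes detected. Both libraries of pair 2 stood apart: the transcript *RP23-81C12.3* took 53.9% (HPC) and 27.1% (LPC) of their gene counts against 3.54% to 5.03% in the other 4, and mitochondrial ribosomal RNA took 12.2% and 7.69% against 1.51% to 1.99%. Values of the members are therefore given by pair or also without pair 2. Levels are normalised counts (CPM, counts scaled to a fixed library size) on library sizes scaled with TMM, and the common coefficient of variation among replicates was 71.6%. Melanocyte markers (*Pmel*, *Mlana*, *Dct*, *Tyrp1*, *Tyr*, *Mitf* and *Sox10*, all 7 with a row) summed to 4244 to 21241 CPM in HPC and 5806 to 17738 CPM in LPC. The 3 fibroblast markers with a row of 4 listed (*Col1a1*, *Col1a2* and *Pdgfrb*) summed to 0.479 to 11.7 CPM in HPC and 5.60 to 13.7 CPM in LPC. The 3 myeloid markers of 6 (*Cd68*, *Lyz2* and *S100a8*) summed to 2.75 to 25.6 CPM in HPC and 0 to 3.37 CPM in LPC. Of 2 endothelial markers *Pecam1* had a row, at 11.1 CPM in the HPC library of pair 2 and 0 in the other 5, and neither keratinocyte marker had a row. The part of these markers in the results below was not tested.

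*S100b* was the most abundant member, at 481 ± 311 CPM (SD over the 6 libraries, n = 6), above *S100a1* in 6 of 6 libraries. A 3′-end count does not scale with transcript length, so levels in CPM are set side by side between genes here. Other effects of a gene on its count, such as sequence shared with other gene models, were not corrected. *S100a1* followed at 72.8 ± 74.9 CPM, then *S100a10* at 34.9 ± 15.8, *S100a13* at 25.1 ± 17.4, *S100a11* at 15.3 ± 10.3, *S100a4* at 11.02 ± 16.7 and *S100a6* at 8.82 ± 8.78 CPM (SD, n = 6 each). From *S100a1* down to *S100a6* neighbours in this order changed places between libraries: *S100a1* was above *S100a10* in 4 of 6, *S100a10* above *S100a13* in 3 of 6, *S100a13* above *S100a11* and *S100a11* above *S100a4* in 4 of 6 each, and *S100a4* above *S100a6* in 2 of 6. *S100a16* was last at 0.372 ± 0.401 CPM, below *S100a6* in 6 of 6 libraries, with 14 counts over all libraries.

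**Figure D1:**
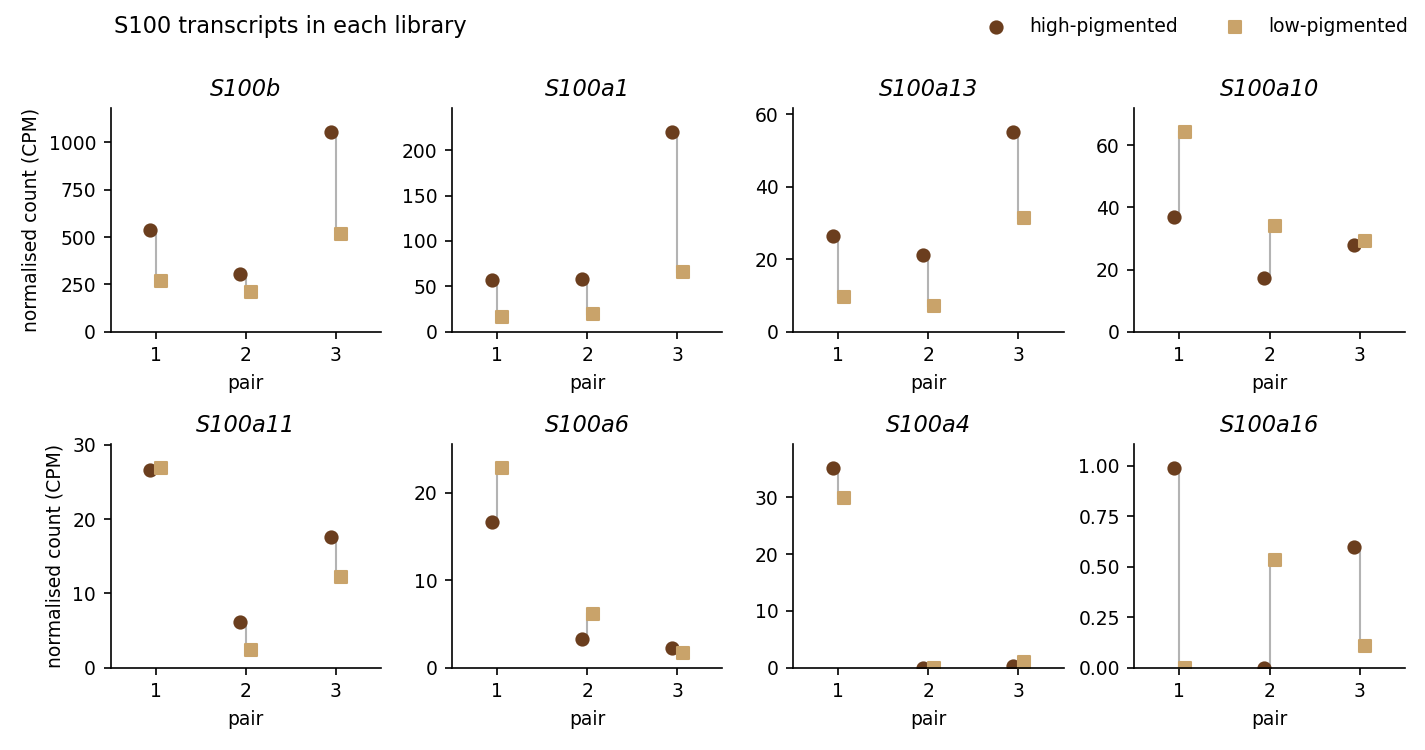
Normalised count (CPM, linear axes that differ between panels) of each S100 member in each library, by pair; circles are high-pigmented and squares low-pigmented libraries, and a line joins the 2 libraries of a pair. S100b, S100a1 and S100a13 sit higher in the high-pigmented library of every pair, and S100a4 is near 0 outside pair 1.

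*S100a1*, a member with targets in contractile and other cells, stood at 57.3, 58.4 and 219 CPM in the HPC libraries of pairs 1, 2 and 3 and at 15.9, 19.6 and 66.4 CPM in the LPC libraries, from 348, 105 and 1832 counts and 94, 73 and 616 counts. Each HPC library was above its own LPC partner, while the LPC library of pair 3 was above the HPC libraries of pairs 1 and 2, so the groups overlapped. The HPC level was 3.61-fold the LPC level in pair 1 (95% counting interval 2.87 to 4.59), 2.98-fold in pair 2 (2.19 to 4.08) and 3.31-fold in pair 3 (3.02 to 3.63). Intervals here are exact intervals of a ratio of 2 counts and cover counting error only. Over the groups the mean was 112 ± 93.3 CPM in HPC and 33.9 ± 28.2 CPM in LPC (SD, n = 3 each), a fitted log2 fold change of 1.71 ± 0.74 (SE). The spread within a group was thus mostly a difference between pairs, with log2 differences of 1.83, 1.56 and 1.72 within them.

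*S100b* stood at 540, 303 and 1053 CPM in HPC and 268, 210 and 514 CPM in LPC, from 3282, 545 and 8790 and from 1588, 782 and 4774 counts. The HPC library was higher than its partner in each pair on this scale, by 2.02-fold (1.90 to 2.14), 1.44-fold (1.29 to 1.61) and 2.05-fold (1.98 to 2.12), and the groups overlapped. The group means were 632 ± 383 CPM in HPC and 331 ± 162 CPM in LPC (SD, n = 3 each), a fitted log2 fold change of 0.93 ± 0.54 (SE). In pair 2 the raw counts went the other way, 545 against 782, and the sign of *S100b* there rested on the scaling: a log2 difference of 0.53 with TMM became -0.20 when libraries were scaled by their total alone. Scaling by the total moved the median of all genes tested in pair 2 from -0.18 to -0.86, so that *S100b* stayed above that median on both scales. The *S100b* to *S100a1* count ratio was lower in the HPC library of each pair, from 16.9 to 9.43 in pair 1, from 10.7 to 5.19 in pair 2 and from 7.75 to 4.80 in pair 3.

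*S100a13*, a member known for its part in the unconventional release of FGF1, was the other one that stood higher in the HPC library of every pair. Its level was 26.5, 21.1 and 55.0 CPM in HPC and 9.61, 7.24 and 31.4 CPM in LPC, from 161, 38 and 459 and from 57, 27 and 291 counts. The groups overlapped, since the LPC library of pair 3 was above the HPC libraries of pairs 1 and 2, as for *S100a1*. Within pairs the HPC level was 2.76-fold (2.03 to 3.80), 2.92-fold (1.74 to 4.97) and 1.75-fold (1.51 to 2.04) the LPC level, and each interval lay above 1. The group means were 34.2 ± 18.2 and 16.1 ± 13.3 CPM (SD, n = 3 each). In the 6-library edgeR quasi-likelihood fit the log2 fold change was 1.09 ± 0.69 (SE) with a Benjamini-Hochberg adjusted p of 0.9996, and with the pair as a block it was 1.26 ± 0.36 with an adjusted p of 0.927. Without both libraries of pair 2 and with the block, edgeR gave 1.09 ± 0.24 with an adjusted p of 0.0190, and limma-voom with sample weights and the block gave 1.00 ± 0.25 with an adjusted p of 0.121 over all 6. Over the 14 alternatives to the 6-library fit the adjusted p ran from 0.0190 to 1.00, and 1 of them was under 0.05. The fit without pair 2 has 1 residual degree of freedom a gene and borrows the spread from all genes.

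The *S100a1* to *S100a13* count ratio ran from 1.65 to 3.99 over the 6 libraries. It was 2.16, 2.76 and 3.99 in HPC and 1.65, 2.70 and 2.12 in LPC, higher in HPC in pairs 1 and 3 and about equal in pair 2. Both genes, which start 42 bases apart, had their highest level in the HPC and their next highest in the LPC library of pair 3. From pair 1 to pair 3 *S100a1* was 3.83-fold higher in HPC and 4.19-fold in LPC, and *S100a13* 2.07-fold and 3.26-fold.

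**Figure D2:**
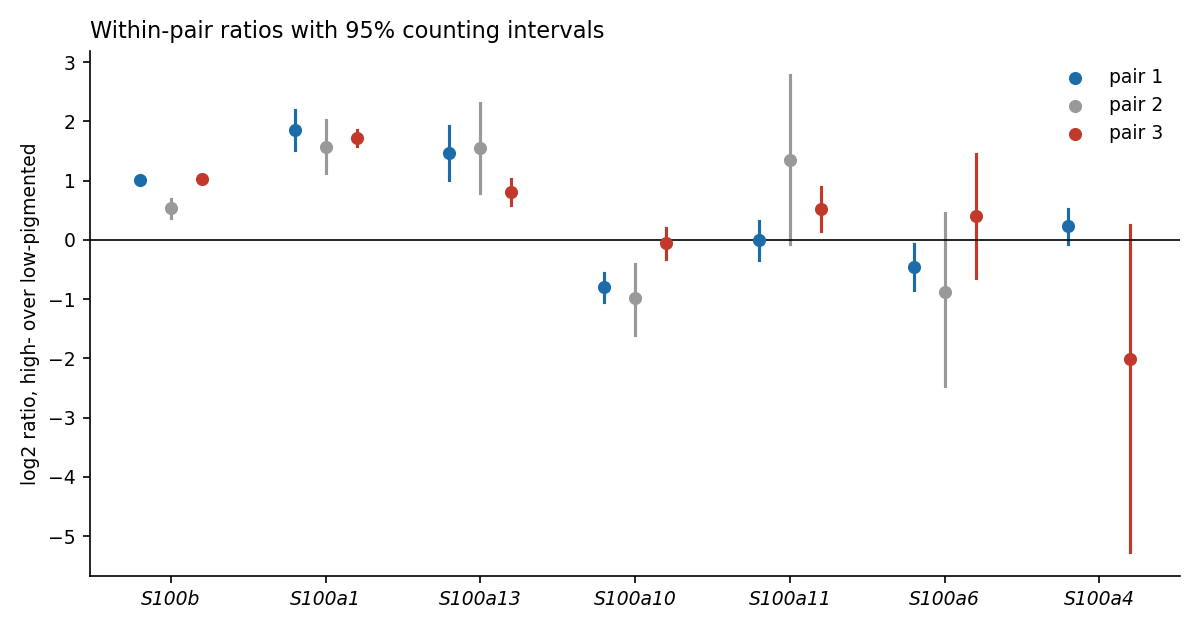
Log2 ratio of the high-pigmented over the low-pigmented library in each pair for the S100 members with counts on both sides (log2 axis), with 95% intervals from counting error only; S100a16 and pair 2 of S100a4 have no ratio to draw. All intervals of S100b, S100a1 and S100a13 lie above 0, while those of the other members cross 0 in at least 1 pair.

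*S100a10*, the light chain that binds annexin A2 and that lacks working calcium-binding loops, went the other way. It stood at 36.9, 17.2 and 28.03 CPM in HPC and 64.1, 34.1 and 29.2 CPM in LPC, so the HPC library was lower in each pair and the groups overlapped. The ratio was 0.575 (0.485 to 0.680) in pair 1 and 0.506 (0.330 to 0.754) in pair 2, and 0.960 (0.802 to 1.15) in pair 3, where the interval held 1. The fitted log2 fold change was -0.63 ± 0.50 (SE; group means 27.4 ± 9.83 and 42.4 ± 18.9 CPM, SD, n = 3 each) with an adjusted p of 0.9996 by edgeR, and 0.441 without pair 2 and with the block. Without the LPC library of pair 1 the log2 fold change was -0.23. Annexin A2 itself (*Anxa2*) stood at 195, 96.7 and 183 CPM in HPC and 248, 84.2 and 134 CPM in LPC, a log2 fold change of 0.03 ± 0.48 (SE).

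*S100a11*, a member that binds annexin A1, was about equal in pair 1 and higher in HPC in pairs 2 and 3. In pair 2 the interval held 1. Its level was 26.7, 6.12 and 17.6 CPM in HPC and 26.8, 2.41 and 12.28 CPM in LPC, from 162, 11 and 147 and from 159, 9 and 114 counts. The ratio was 0.994 (0.794 to 1.25) in pair 1, 2.53 (0.955 to 6.92) in pair 2 and 1.43 (1.11 to 1.85) in pair 3, and the fitted log2 fold change of 0.30 ± 0.90 (SE) had an adjusted p of 0.9996 by edgeR. It turned negative without the HPC library of pair 1 (-0.20) or the LPC library of pair 2 (-0.18). Its transcript shares 297 bases at 98.7% identity or more with the gene models *Gm12854* and *Gm7665*, which had 12 and 4 counts in all, so reads could be split between them.

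*S100a6*, also called calcyclin, stood at 16.6, 3.34 and 2.28 CPM in HPC and 22.8, 6.17 and 1.72 CPM in LPC, from 101, 6 and 19 and from 135, 23 and 16 counts. It was lower in HPC in pairs 1 and 2 and higher in pair 3, where the ratio of 1.32 had an interval of 0.643 to 2.74. The fitted log2 fold change was -0.45 ± 1.17 (SE) with an adjusted p of 0.9996 by edgeR; it turned positive, 0.88, without the LPC library of pair 1.

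*S100a4*, the member often named metastasin, was seen almost only in pair 1, with 213 counts in HPC and 177 in LPC (35.1 and 29.9 CPM). It had 0 counts in both libraries of pair 2, and 2 and 9 counts in pair 3 (0.240 and 0.970 CPM). A count of 0 allows up to 3 counts, or 1.67 CPM in the HPC and 0.804 CPM in the LPC library of pair 2. Within pair 1 the HPC to LPC ratio was 1.17 (0.957 to 1.44). The gene did not pass the filter on low counts with all 6 libraries; without pair 2 edgeR gave a log2 fold change of -0.10 ± 0.40 (SE) with an adjusted p of 0.956. Its exons overlap those of *Gm42674* on the same strand, with transcript stretches of up to 302 bases in common. *Gm42674* had no row, and the exon overlaps did not reach the end of *S100a4*. The part of this overlap in the counts was not tested.

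*S100a16*, a widely expressed member, had 6, 0 and 5 counts in HPC and 0, 2 and 1 in LPC. It did not pass the filter, and a difference was not detectable at this depth.

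Of the 6 members that were not picked for their levels, *S100a13* alone was higher in HPC in all 3 pairs, as *S100a1* and *S100b* were. In the 6-library fit 4 of those 6 could be tested and 0 were called at an adjusted p under 0.05, with 0% of 11324 genes called (38 genes had an unadjusted p under 0.05); the block gave 0 and 0% as well (213 genes unadjusted). Without pair 2 and with the block, 1 of the 5 tested was called, *S100a13*, against 1.3% of 11906 genes, and against 0.932% for those called higher in HPC. With limma-voom and sample weights 0 of 4 were called, against 0.3% of genes. HPC stood above LPC in all 3 pairs for 1 of these 6, *S100a13*, which is also 1 of the 4 that passed the filter. Of the 11324 genes that passed it, 12.8% did so. HPC stood below LPC in all 3 pairs for 1 of the 6, *S100a10*, also 1 of those 4, where 17.3% of the 11324 genes did so. *S100a1* and *S100b*, above in all 3 pairs, were chosen on such differences and are not counted; with library totals *S100b* was above in 2 pairs. The HPC and LPC groups overlapped in 8 of 8 members, of which 6 passed the filter. Of the 11324 genes that passed it, 5.78% had groups that did not overlap. The median log2 fold change of the 6 members that passed the filter was 0.61, with 4 of 6 above 0, and that of all genes was -0.04, with 47.0% above 0; the members' median includes *S100a1* and *S100b* and so is not evidence about the family. Of the 6 members without *S100a1* and *S100b*, 3, 2 and 4 were higher in HPC in pairs 1, 2 and 3. Their medians were 0.11, -0.41 and 0.42, beside 0.003, -0.18 and -0.005 for the 11324 genes that passed the filter. These 6 include *S100a4* and *S100a16*, which did not pass it. *S100a16*, at 0 to 6 counts a library, entered at 1.96, -1.36 and 1.07, and *S100a4* entered at 0 in pair 2. Such values lean on the prior count, so the medians are not a result about the family.

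**Figure D3:**
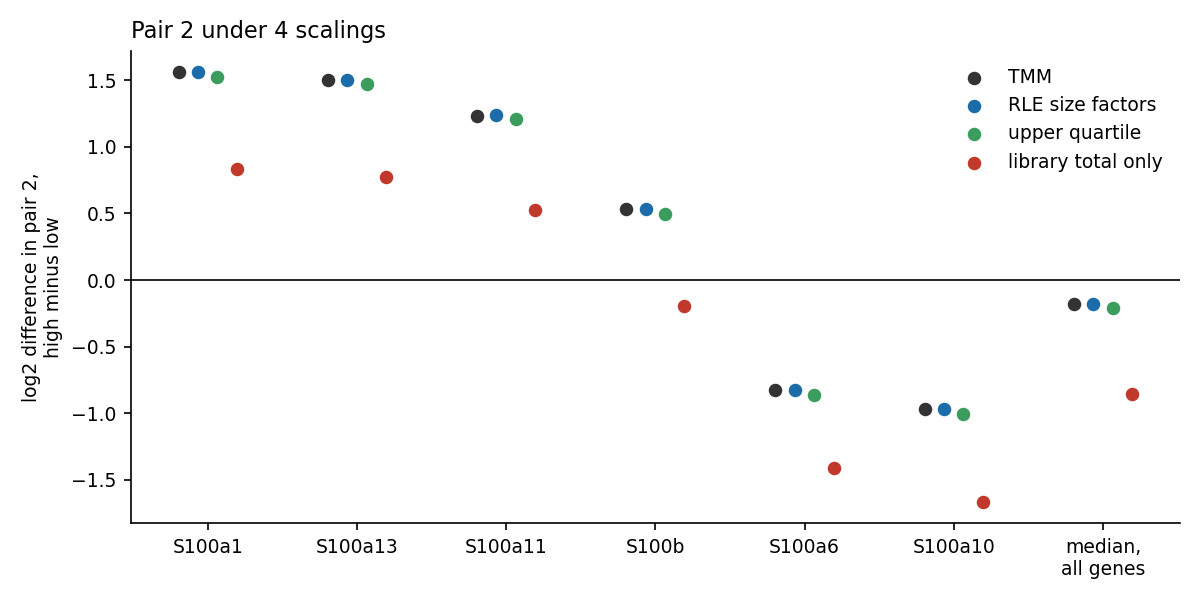
Log2 difference between the high- and low-pigmented library of pair 2 for 6 S100 members and for the median of all genes tested, with libraries scaled in 4 ways (colours; linear axis of log2 values). Scaling by library total alone moves every point down, and S100b is the member that changes side, from 0.53 with TMM to -0.20.

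In pairs 1 and 3, 6 of the 7 members tested differed by more on the log2 scale between pairs than between sorted populations, all but *S100b*. The share of all genes that did so was not computed, so this count is not a result about the family. Looking at pairs was prompted by the levels of *S100a4* and *S100a6* above, so the comparison was chosen after seeing the data. Those 2 are therefore described with no test, and *S100a4* also passed the filter through pair 1 alone. A pair enters the fits below as its HPC and its LPC library, which are sorted fractions and not replicates of a suffix. Adjusted p-values between pairs therefore do not measure the spread between suffixes. Without pair 2, and with the sort in the model, each of the other 5 members tested differed between pair 1 and pair 3 at an adjusted p under 0.05 by edgeR, where 25.5% of 11906 genes did so. With all 6 libraries the same coefficient passed for 0 of these 5 (smallest adjusted p 0.125, *S100a1*) and for 0% of 11324 genes, and with limma-voom and sample weights for 5 of 5, where 22.1% of genes passed.

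Of the 7 members, 4 were higher in pair 1 and 3 in pair 3. *S100a4* had a fitted log2 difference of 5.70 ± 0.46 (SE). In counts, its HPC library of pair 1 was 146 times that of pair 3 (40.0 to 1216), and the LPC library 30.8 times (15.9 to 68.4). Against pair 2, where it was at 0, pair 1 was at least 21.0-fold higher in HPC and at least 37.1-fold higher in LPC. *S100a6* had a fitted log2 difference of 3.30 ± 0.43 (SE). *S100a11* was higher in pair 1 by 0.87 ± 0.27 (SE; adjusted p 0.0192 by edgeR) and *S100a10* by 0.79 ± 0.22 (0.00952). The 3 members that stood higher in HPC were those higher in pair 3: *S100a1* differed by -1.98 ± 0.17 (adjusted p 2.82e-09), *S100a13* by -1.33 ± 0.24 (0.000138) and *S100b* by -0.94 ± 0.12 (1.52e-06), all as pair 1 minus pair 3. In each of the 7 the direction was the same in HPC and in LPC. The share of all genes with the same direction was not computed, so this is not a result about the family. Libraries of a pair also deviated together from their group means over the genes tested. The adjusted p-values here do not measure the spread between suffixes. Since the labels do not say what the suffix marks, culture, sort and library preparation cannot be told apart here.

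**Figure D4:**
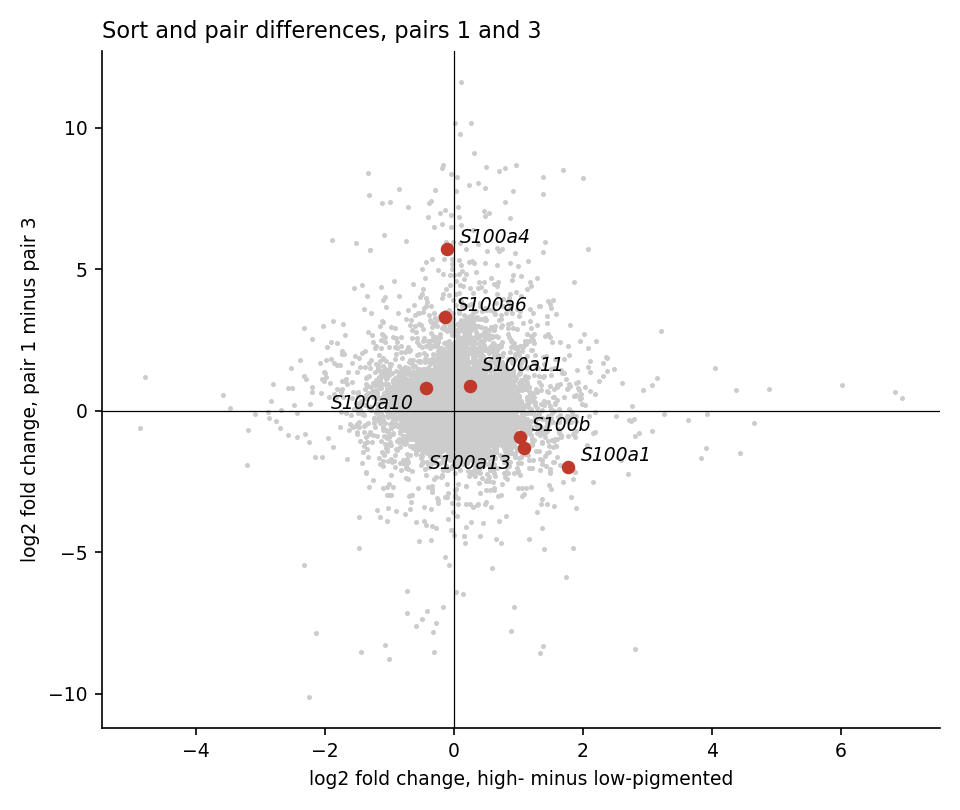
Each grey point is 1 of 11906 genes in the blocked fit to the 4 libraries of pairs 1 and 3, with the log2 fold change of high- minus low-pigmented cells on the x axis and of pair 1 minus pair 3 on the y axis; red points are the 7 S100 members tested. S100a4 and S100a6 lie near 0 on the x axis and at 5.70 and 3.30 on the y axis, and S100a1, S100b and S100a13 lie to the lower right.

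The genes whose log2 CPM over the 6 libraries was most like *S100a1*, among 7790 other genes with a mean of at least 10 CPM, were *Oca2* (r = 0.990, and 0.994 over the 4 libraries of pairs 1 and 3), *Fuca1* (0.988 and 0.997), *Chmp3* (0.980 and 0.996), *Zbtb22* (0.974 and 0.997) and *Mlst8* (0.967 and 0.985). *Oca2*, a melanosome membrane transporter, stood at 10.5, 7.78 and 34.1 CPM in HPC and 2.02, 3.22 and 12.2 CPM in LPC, with the same high library as *S100a1*. *S100a13* ranked 7 in likeness to *S100a1* (r = 0.963 and 0.987) and *S100b* ranked 38 (r = 0.918 and 0.995). Most like *S100b* were *Appl2* (0.982 and 0.968), an adaptor of early endosomes, *Rab5b* (0.980 and 0.998), a GTPase of the same compartment, *Akr1b10* (0.977 and 0.971), *Lbh* (0.969 and 0.994) and *Aldh4a1* (0.967 and 0.953), with *S100a13* at rank 22 (r = 0.945 and 0.974) and *S100a1* at rank 47. *S100a10* was at r = -0.57 to *S100a1* over 6 libraries and at -0.91 over 4. These are descriptions over 6 libraries that share depth and pair, and with so few points many genes reach a high r.

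Binding partners and receptors of S100 proteins were spread around 0. Of 36 listed genes 35 had a row and 30 were tested: 16 were higher and 14 lower in HPC (median log2 fold change 0.04), and 0 passed an adjusted p under 0.05 in the edgeR fit to 6 libraries or in the 3 fits with the block. At an unadjusted p under 0.05 there were 0 in the 6-library fit and 5 of 31 without pair 2, where 12.1% of all genes had one. The smallest p values belonged to *Stk38l*, a kinase of the NDR family, which S100B binds, at 1.66 ± 0.89 (log2 fold change, SE), *Ppid*, a cyclophilin, at -0.73 ± 0.54, *Anxa6*, annexin A6, at -0.94 ± 0.77, and *Fkbp8*, an immunophilin, at 0.66 ± 0.55, each with an adjusted p of 0.9996 by edgeR. Their largest within-pair differences were in pair 2: 4.26 for *Stk38l*, -1.96 for *Ppid*, -3.54 for *Anxa6* and 1.79 for *Fkbp8*. The most abundant partners were *Bsg*, basigin, with mean levels of 243 CPM in HPC and 224 CPM in LPC, *Mdm2*, the p53 ubiquitin ligase, with 209 and 168 CPM, *Ppfibp1*, liprin beta 1, with 191 and 171 CPM, and *Anxa2*. *Ager*, which encodes RAGE, had 10, 0 and 40 counts in HPC and 0, 0 and 11 in LPC. *Ager* did not pass the filter with all 6 libraries. Without pair 2 it passed through the HPC libraries alone, where it was higher, so that fit is not evidence of a difference. With the block edgeR then gave a log2 fold change of 2.70 ± 1.14 (SE) with an adjusted p of 0.314.

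Other EF-hand genes were spread likewise. Of 52 listed 51 had a row and 45 were tested, 25 higher and 20 lower in HPC with a median of 0.07, and 0 passed in the same 4 fits (0 at an unadjusted p under 0.05 in the 6-library fit and 6 of 45 without pair 2, beside 12.1% of all genes). *Sparc*, a secreted matrix-binding protein, was at 457 ± 299 CPM in HPC and 478 ± 322 CPM in LPC (SD, n = 3 each), and *Calu*, calumenin of the secretory pathway, at 429 ± 140 and 388 ± 106 CPM. *Ncs1*, a neuronal calcium sensor, had the smallest p of the list, with a log2 fold change of -1.63 ± 1.07 (SE), followed by *Efcab14* (0.81 ± 0.55), *Chp1* (0.64 ± 0.45) and *Lcp1*, plastin 2 (1.22 ± 0.87), each with an adjusted p of 0.9996 by edgeR.

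Most pigment-lineage transcripts differed in direction between pairs, while *Mlana* was higher in HPC in each pair. *Pmel*, the melanosome fibril protein, differed between HPC and LPC by 0.68, -0.55 and 0.80 (log2) in pairs 1, 2 and 3, *Mlana* by 0.20, 0.63 and 0.19, *Dct* by 0.15, -0.44 and 0.13, and *Tyr* by -0.05, -1.97 and 2.99. The regulators *Mitf* and *Sox10* differed by 0.41, -0.37 and 0.11 and by 0.08, -0.90 and 0.49. In pair 2, where 5 of these 6 were lower in HPC with TMM, *S100a1* and *S100a13* were higher under each of the scalings tried. *Tyrp1*, the other listed marker, differed by -0.03, -0.91 and 0.41 in pairs 1, 2 and 3. Marker values are given with TMM alone, on which 41.5% of all genes tested were higher in HPC in pair 2. All 7 melanocyte markers had a positive log2 fold change in the 6-library fit, and 4 of 7 with the block, with 0 called in either. With the block, all 7 were also positive without pair 2 and by limma-voom with sample weights. Of all genes, 50.1% and 51.0% were positive in those 2 fits. Without pair 2, 1 of 7 was called, *Pmel*, with 1.3% of all genes called. The part of these markers in the S100 differences was not tested.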

How the data were processed

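RNA from 3 high-pigmented and 3 low-pigmented B16-F10 libraries was sequenced with the QuantSeq forward 3′-end kit, per the labels' protocols. The authors deposited raw counts per gene and library; STAR and GRCm38 come from the submitters' processing notes, HTSeq from the table's name, and versions, strand use and annotation are not given in the sources used here. Tally rows (no feature, 12.4% to 29.5%; ambiguous, 0.487% to 2.51%) entered neither library sizes nor tests. Libraries held 3819605 to 7311131 gene counts.

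Counts were tested across all genes with edgeR 4.0.16 (quasi-likelihood, robust; TMM; filterByExpr, minimum count 10; Benjamini-Hochberg) in R 4.3.3, with 2 groups and no covariate. Standard errors come from the test statistic. Log2 CPM uses a prior count of 2, and ratios of counts have exact 95% intervals. Alternatives were RLE size factors, no filter, DESeq2 1.42.0, limma 3.58.1, the pair block, and leaving out libraries. Same-suffix libraries deviated together from their group means (r = 0.469, 0.318 and 0.425, above the minimum of 0.1), so the title suffix was taken to pair them. Every 2 libraries differed beyond sampling noise (chi-square over degrees of freedom of 14.5 or more). Fits were also run on simulated data. There the fits to 6 libraries called few or none of the genes set to differ. The fit without pair 2 called more of them, and also more genes that were not set to differ. The simulated spread was estimated from the same libraries. Shared transcript stretches came from blastn 2.17.0 (at least 95% identity over 100 bases) on GENCODE vM21.

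Of the partner and EF-hand lists, genes were named if called without pair 2, or among the 4 with the smallest p or the 4 with the highest mean CPM; the 5 genes most like S100a1 and S100b were named by correlation. Some EF-hand genes that this rule names are not reported here. The members and lists were chosen with earlier results of these data known.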

Additional observations from a re-analysis of the deposited data

How the results depend on the processing

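Of 257 values recomputed under alternatives, 230 stayed the same, 21 moved, 1 passed the threshold and 5 values of single genes changed sign. The members' median, among the 21, also changed sign. A value stayed the same if it kept its direction and its side of the threshold, or moved by less than the SD between pairs. Counts stayed the same if they kept within a set ratio. Of the 6 members not picked for their levels, the number called was 1 (S100a13, log2 fold change 1.09) with the replicate block and without both libraries of pair 2; with the block and all 6 libraries it was 0, and no other call changed under the pairing. The members' median log2 fold change was 0.25 in the fit without pair 2 and ran from -0.18 to 0.85 when 1 library was left out, with -0.18 without the low-pigmented library of pair 2. Signs changed for S100a6 (0.021 by limma-voom; 0.88 without the low-pigmented library of pair 1), S100a11 (-0.20 without the high-pigmented library of pair 1; -0.18 without the low-pigmented library of pair 2) and S100b within pair 2 (-0.20 with library totals, an alternative chosen after seeing the data); the cause was not tested. With 1 library left out, S100a6 ran from -1.86 to 0.88, S100a11 from -0.20 to 1.19, S100a10 from -0.90 to -0.23, S100a13 from 0.58 to 1.996, S100b from 0.36 to 1.38 and S100a1 from 0.79 (without the high-pigmented library of pair 3) to 2.62 (without the low-pigmented library of pair 3). Library totals in pair 2 gave 0.83 for S100a1, 0.78 for S100a13, 0.53 for S100a11 and -1.66 for S100a10. Between pairs 1 and 3 the members past the threshold numbered 7 without pair 2, 6 with sample weights and 0 in the 6-library fit. The share of all genes past it was 25.5%, 22.1% and 0%. The counts of 7 and 6 include S100a6, and that of 7 also includes S100a4. Both genes prompted the comparison, and S100a4 passed the filter through pair 1 alone, so their part in these counts is not a test result. A pair enters each of these fits as its high-pigmented and its low-pigmented library, so the counts do not reflect the spread between suffixes. Counts of 11 and 9 for S100a11 and of 6 for S100a6 in pair 2, and 14 in all for S100a16, limit those ratios.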
